A study of Oryza sativa with 4 samples.

Results

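Transcript levels in submerged rice shoots were compared between the line M202(Sub1) and the cultivar M202 after 1 day under water. The comparison covers 15426 genes of the 17905 that have a named probe set on the array, and it uses 2 of the series' 4 samples. A gene entered if its highest signal on any of the 4 arrays reached the level floor, the median of all rice signals (log2 5.51). Genes were chosen by level and not by a difference, but a gene at background in 1 line could enter through the other. The genes nearest the floor were LOC4341377 just inside (5.5144) and EP3A just outside (5.5137). M202(Sub1) 1 day and M202 1 day had 1 array each, and the pair M202(Sub1) 6 days and M202 6 days, which shares no array with them, is set beside them throughout. All 4 samples were shoots of soil-grown seedlings aged 18 days when they were put fully under water in a greenhouse. No plants kept in air were compared, so the values describe how the lines differed under water, not what water did to either line. M202 is a japonica cultivar that tolerates flooding poorly. M202(Sub1) is a line of M202 that carries the introgressed Sub1 locus. Such a line can also carry donor DNA outside the target locus, and it stands for 1 line only. How many seedlings made up a sample was not given in the sources used here.

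Sub1 is a cluster of ethylene response factor genes on chromosome 9 that determines much of the difference in flooding survival between rice cultivars. Under water, ethylene builds up in the shoot and gibberellin drives leaves to elongate toward the surface, which spends stored sugar. Lines with the tolerance allele hold elongation back, keep their carbohydrates and chlorophyll longer, and draw energy from ethanol fermentation while oxygen is short. The genes of the locus itself were not analysed here.

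With 1 array per genotype there is no replicate error, and no difference below carries a test or a p-value. A difference is the log2 signal of M202(Sub1) minus that of M202, and a value of 1 is 2-fold. The median log2 signal of all rice probe sets was 5.54 on the M202(Sub1) array and 5.53 on the M202 array at 1 day. Leaf markers fitted the labelled tissue, with 5 of 6 above the floor, at 13.40 to 14.28 in M202(Sub1) and 13.58 to 14.32 in M202. Of the marker genes of other tissues, 2 of 4 root genes, 3 of 7 seed storage genes and 4 of 6 shoot meristem genes lay above the floor. The root silicon transporter Lsi1 read 7.49 in M202(Sub1) and 8.13 in M202, and the globulin gene GLB read 10.68 in M202(Sub1) and 10.37 in M202. The gap between 3' and 5' probe sets, a measure of RNA integrity, was 0.60 for Gapdh in M202(Sub1) and 0.68 in M202, and 2.31 for actin in M202(Sub1) and 2.26 in M202.

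The lines were close to each other at 1 day. The median difference over all 15426 genes was -0.01, the quartiles were -0.19 and 0.13, and 71.4% of genes lay under 1.2-fold apart. At least 2-fold higher signals in M202(Sub1) were found for 120 genes (0.778%), and at least 2-fold lower signals for 156 genes (1.01%). At least 4-fold apart were 28 genes on the higher side (0.182%) and 19 on the lower side (0.123%). The 2-fold line cuts through a continuous distribution, and the genes nearest to it had absolute differences of 1.002 inside and 0.993 outside. Between the 6-day arrays 930 genes (6.03%) were 2-fold or more apart, 594 higher (3.85%) and 336 lower (2.18%), and the width of the middle 50% of differences was 0.443 there against 0.318 at 1 day.

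**Figure D1:**
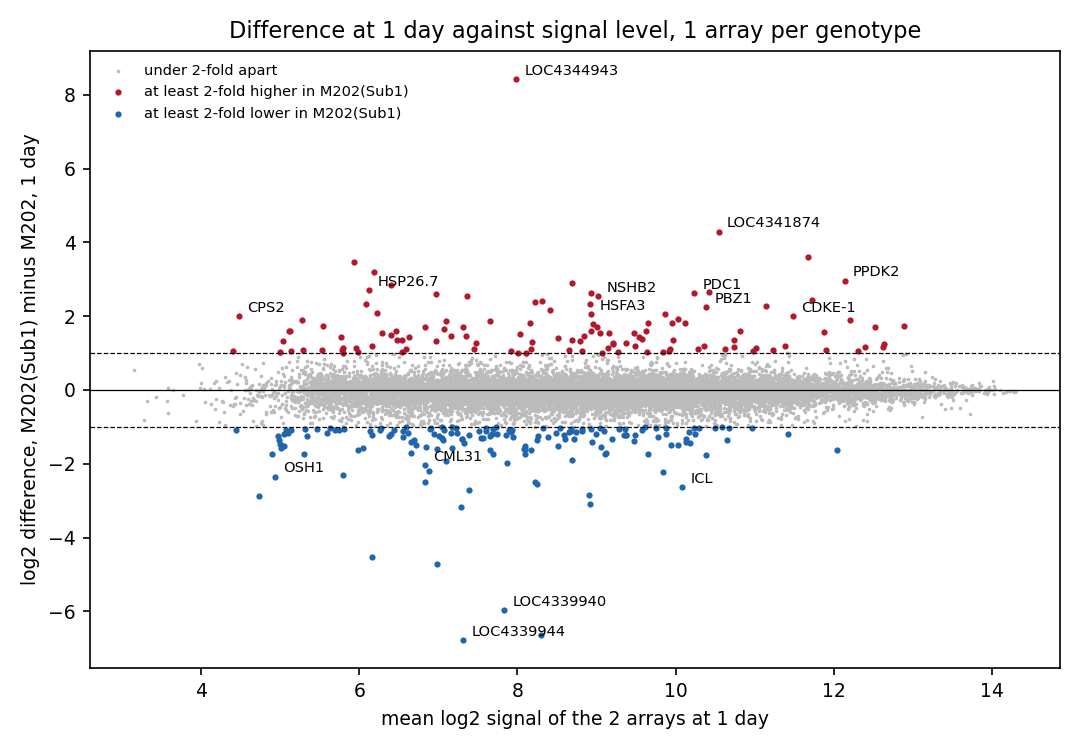
Each point is 1 of 15426 genes. The x axis is the mean log2 signal of the 2 arrays at 1 day and the y axis the log2 difference, M202(Sub1) minus M202, with dashed lines at 2-fold. Red points are the 120 genes at least 2-fold higher in M202(Sub1), blue points the 156 at least 2-fold lower, and grey points lie between the lines. The point highest on the y axis is LOC4344943 at 8.43, and the lowest is LOC4339944 at -6.77.

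Genes higher in M202(Sub1) were found at every level, whereas those lower thinned out toward bright genes. In 5 groups of equal size by mean level, dimmest to brightest, the higher genes numbered 38, 18, 24, 18 and 22, and the lower genes 62, 40, 28, 21 and 5. In 25 of the 120 higher genes the M202 signal was under the floor, and in 30 of the 156 lower genes the M202(Sub1) signal was under it. The size of a difference is loosest in those genes, since signals near background are compressed by the array's summary.

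Anaerobic metabolism held the best known genes on the higher side. PDC1, a pyruvate decarboxylase that takes pyruvate into ethanol fermentation, read 11.55 in M202(Sub1) and 8.92 in M202, a difference of 2.63 or 6.17-fold. Adh2, an alcohol dehydrogenase that completes the pathway, read 9.73 in M202(Sub1) and 8.12 in M202 (1.60). The second decarboxylase gene, PDC2, was bright in both lines, at 12.31 in M202(Sub1) and 11.59 in M202 (0.72). The least expressed of the group, PDC3, stayed near the floor in both lines, at 5.58 in M202(Sub1) and 5.88 in M202 (-0.31). The 4 fermentation genes had a median difference of 1.16, against -0.01 for all genes, with 3 above 0 where 47.4% of all genes were above 0. At 6 days the list's median was 1.24. PDC1, Adh2 and PDC2 were dimmer in both lines than at 1 day, and PDC1 read 8.21 in M202(Sub1) and 4.86 in M202 (3.35).

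The fermentation genes stood apart from the sugar metabolism that feeds them. By the probe set that stands for each gene, none of 17 glycolysis genes was 2-fold apart. Their differences ran from -0.40 to 0.50 with a median of -0.01. GAPC3, a cytosolic glyceraldehyde-3-phosphate dehydrogenase, had the widest one, with 13.40 in M202(Sub1) and 12.90 in M202 (0.50). It read 12.85 in M202(Sub1) and 11.43 in M202 at 6 days (1.42). FBA3, also of this list, had 0.50 at 1 day and 1.37 at 6 days. Its 3 probe sets ran from -0.01 to 1.11 at 1 day. Sucrose synthase SUS1, which opens sucrose for use under low oxygen, was equally bright in both lines, at 13.12 in M202(Sub1) and 13.19 in M202 (-0.07). Among the 14 genes of sucrose and starch breakdown the median was -0.09 and none was 2-fold apart. The widest of them was the α-amylase gene amy2A, with 7.97 in M202(Sub1) and 8.72 in M202 (-0.74). AMY3D, a sugar-repressed α-amylase linked to germination under water, lay under the floor in both lines at 1 day, at 4.83 in M202(Sub1) and 5.21 in M202.

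Sugar transporters and trehalose enzymes leaned low without large values. Of 19 genes, 14 were below 0 and the median was -0.26, against -0.01 over all genes and with 52.5% of all genes below 0. SWEET4, a sugar efflux carrier, read 11.43 in M202(Sub1) and 11.89 in M202 (-0.46). The list's widest value went the other way. TPP1, a trehalose-6-phosphate phosphatase, read 9.14 in M202(Sub1) and 8.23 in M202 (0.91), and at 6 days 11.58 in M202(Sub1) and 9.14 in M202 (2.44).

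Enzymes of organic acid metabolism gave one of the largest differences in each direction. PPDK2, annotated as a pyruvate orthophosphate dikinase, an enzyme that interconverts pyruvate and phosphoenolpyruvate, read 13.62 in M202(Sub1) and 10.65 in M202 (2.97, 7.81-fold). The name of its probe set marks possible cross-hybridisation. ICL, the isocitrate lyase of the glyoxylate cycle, which recovers carbon from fatty acids, read 8.77 in M202(Sub1) and 11.40 in M202 (-2.63). By 6 days ICL was near the top of the scale in both lines, at 13.59 in M202(Sub1) and 13.88 in M202 (-0.28), so the lines differed there far less than at 1 day. Malate synthase MS, the partner of ICL in the same cycle, had a difference of -0.61 at 1 day, and the 6 genes of this list had a median of -0.36.

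The haemoglobins stood out among 19 oxygen-related genes, whose median was 0.02. Without them 8 genes were above 0 and 9 below. NSHB2, a non-symbiotic haemoglobin of the kind that binds oxygen and detoxifies nitric oxide in hypoxic plants, read 10.29 in M202(Sub1) and 7.75 in M202 (2.54). At 6 days it was dimmer in both lines, at 6.90 in M202(Sub1) and 5.11 in M202 (1.79). NSHB1 read 8.58 in M202(Sub1) and 6.72 in M202 (1.86), but only 2 of its 3 probe sets were higher, and the value was -0.29 when probe sets marked for cross-hybridisation were left out. The catalase gene catA was lower, at 12.75 in M202(Sub1) and 13.48 in M202 (-0.72). The alternative oxidase gene AOX1 (-0.32) and the NADPH oxidase gene rbohB (-0.28) differed little.

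**Figure D2:**
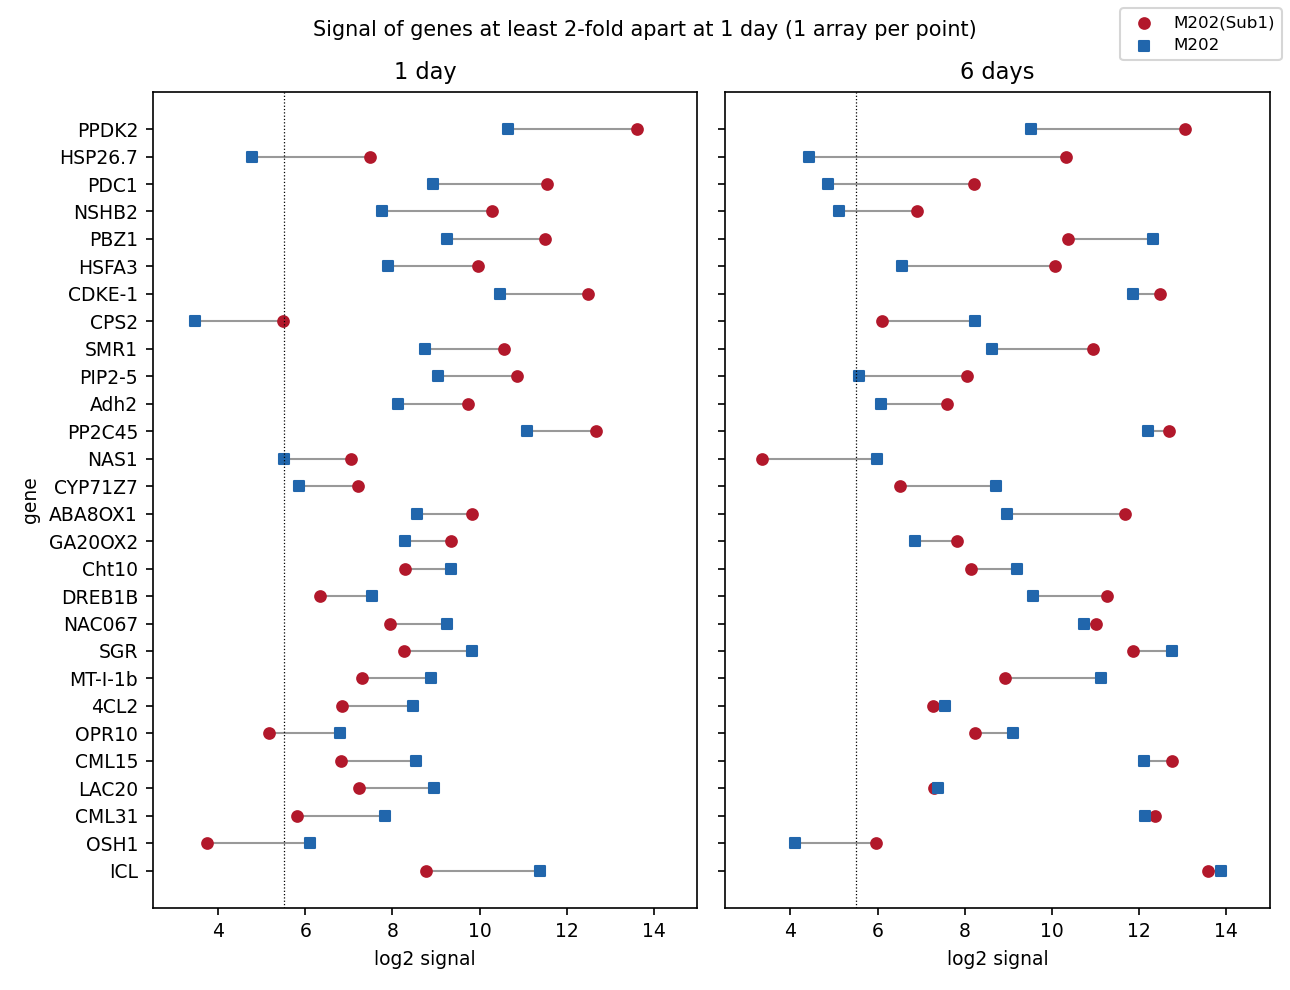
Log2 signal (x axis) of 28 genes that were at least 2-fold apart at 1 day, in M202(Sub1) (red circles) and in M202 (blue squares), at 1 day and at 6 days. Each point is 1 array, and the dotted line is the level floor of 5.51. PDC1 and Adh2 keep the red point to the right of the blue one in both panels, PBZ1, NAS1 and CYP71Z7 swap sides, and ICL, CML31 and LAC20 close their gap at 6 days.

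Hormone genes were not shifted one way. Over 7 hormone lists with 216 genes, the median difference was -0.01, 108 genes were above 0, 5 passed 2-fold upward and 3 downward. These 8 are 3.70% of the hormone genes, against 1.79% of all genes. Ethylene genes showed no 2-fold difference among 10. EIL1A, a transcription factor that carries the ethylene signal, read 13.23 in M202(Sub1) and 13.04 in M202 (0.19). ACO1, which makes ethylene in its last step, read 12.36 in M202(Sub1) and 12.61 in M202 (-0.24). ACS2, which makes the ethylene precursor, was the widest of the list, at 5.55 in M202(Sub1) and 6.41 in M202 (-0.86).

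Gibberellin genes included 1 of 14 past 2-fold upward, where 0.778% of all genes were. GA20OX2, the gibberellin 20-oxidase known as the semidwarf gene of modern rice, read 9.34 in M202(Sub1) and 8.28 in M202 (1.06). KAO, an earlier enzyme of the same synthesis, went the other way, at 8.78 in M202(Sub1) and 9.44 in M202 (-0.67). The growth repressors of the pathway barely differed. SLR1, the DELLA protein of rice, read 10.38 in M202(Sub1) and 10.22 in M202 (0.16). SLRL1, a related repressor, read 7.07 in M202(Sub1) and 7.24 in M202 (-0.17).

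The abscisic acid list held 2 of 70 genes at least 2-fold higher (0.778% of all genes), with a median of 0.01. It is mainly a phosphatase list, since 54 of its members are numbered genes of the wider protein phosphatase 2C family. ABA8OX1, a hydroxylase that breaks abscisic acid down, read 9.83 in M202(Sub1) and 8.58 in M202 (1.26), and at 6 days 11.68 in M202(Sub1) and 8.98 in M202 (2.71). PP2C45, of the protein phosphatase 2C family, read 12.67 in M202(Sub1) and 11.09 in M202 (1.58), and the mean of its probe sets was under 2-fold (0.86). RAB21, a dehydrin gene that abscisic acid induces, was lower, at 6.17 in M202(Sub1) and 7.07 in M202 (-0.89).

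In the other hormone lists the named differences were few and mostly in dim genes. IAA20, of the Aux/IAA repressors of auxin response, read 5.92 in M202(Sub1) and 4.32 in M202 (1.60), with M202 under the floor. GH3.4, from a family that conjugates hormones to amino acids, read 5.01 in M202(Sub1), under the floor, and 6.18 in M202 (-1.17). The remaining 51 of 53 auxin genes were under 2-fold apart. CKX5, an oxidase that degrades cytokinin, read 8.51 in M202(Sub1) and 7.51 in M202 (1.01), and its difference at 6 days was 2.07. BZR3, of the brassinosteroid-responsive BZR family, read 9.67 in M202(Sub1) and 8.90 in M202 (0.77). Of 33 jasmonate genes 20 were below 0, not far from the 52.5% of all genes, with a median of -0.13. OPR10, of the oxophytodienoate reductase family, read 5.17 in M202(Sub1), under the floor, and 6.80 in M202 (-1.63). The lipoxygenase gene CM-LOX1 read 10.45 in M202(Sub1) and 11.48 in M202 (-1.03).

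Transcription factor genes leaned slightly toward higher values in M202(Sub1), though not in every list, and some differed widely. In 8 factor lists with 117 genes the median was 0.05, with 68 above 0 (against 47.4% of all genes). At 2-fold or more 2 were higher and 4 lower. These 6 are 5.13% of the list genes, against 1.79% of all genes. HSFA3, a heat shock factor, was the clearest, at 9.96 in M202(Sub1) and 7.90 in M202 (2.06), and at 6 days 10.07 in M202(Sub1) and 6.57 in M202 (3.50). Of all 18 heat shock factor genes 15 were above 0, with a median of 0.22, against 47.4% and -0.01 over all genes. The heat shock protein genes, which such factors are known to induce, had 8 of 21 above 0 and a median of -0.05. HSP26.7, a small heat shock protein of the chloroplast, had the list's widest value, at 7.48 in M202(Sub1) and 4.77 in M202 (2.71), with M202 under the floor. At 6 days it read 10.33 in M202(Sub1) and 4.42 in M202 (5.91).

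The DREB1 regulators were dim at 1 day, whereas DREB2B, a related factor, read 8.31 in M202(Sub1) and 7.98 in M202. DREB1B, a factor that activates cold-response genes, read 6.35 in M202(Sub1) and 7.54 in M202 (-1.19). At 6 days its order was the opposite, with 11.27 in M202(Sub1) and 9.58 in M202 (1.70). DREB1A, DREB1E and DREB1G, of the same family, were under 1.5-fold apart at 1 day, at 0.33, -0.29 and -0.21, and had differences of 1.36, 1.94 and 2.55 at 6 days. Both 1-day signals of DREB1G were under the floor. DREB1C, also of the family, was near 0 at both times, at -0.01 and -0.13. NAC067, of the stress-related NAC factors, read 7.94 in M202(Sub1) and 9.26 in M202 (-1.32), and 5 of 6 NAC genes were below 0, where 52.5% of all genes were. WRKY62, a factor known from immunity, read 6.50 in M202(Sub1) and 5.46 in M202 (1.04), with M202 under the floor. MYB4, known from cold tolerance, read 7.76 in M202(Sub1) and 8.39 in M202 (-0.63), and its other probe set gave -0.10. The median of the 10 MYB genes was 0.16. HOS66, of the homeobox genes, read 9.36 in M202(Sub1) and 10.40 in M202 (-1.03). OSH1, the homeobox gene that maintains the shoot meristem, read 3.76 in M202(Sub1), under the floor, and 6.11 in M202 (-2.35), and its other probe set gave -3.56.

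**Figure D3:**
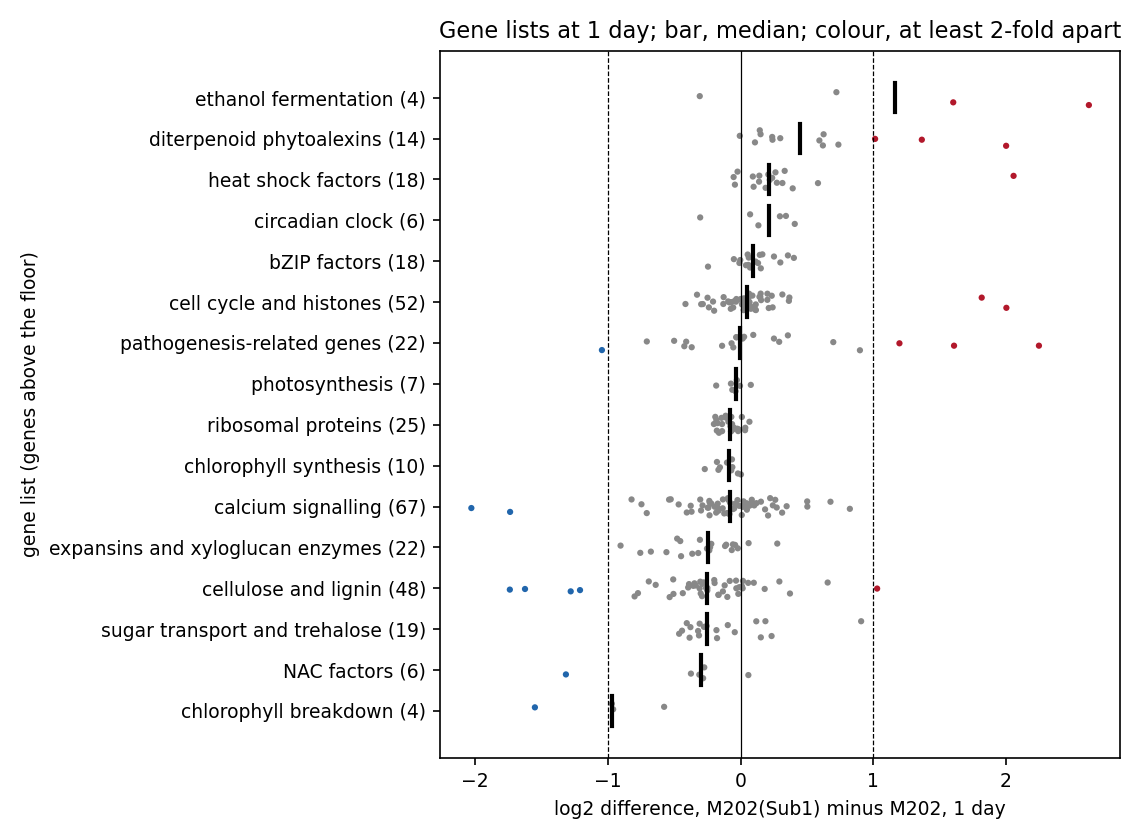
Log2 difference at 1 day, M202(Sub1) minus M202 (x axis), of the genes above the floor in 16 of the gene lists (y axis, number of genes in parentheses). Each point is a gene, the bar is the list's median, red points are at least 2-fold higher and blue points at least 2-fold lower in M202(Sub1), and dashed lines mark 2-fold. Medians run from 1.16 for ethanol fermentation to -0.97 for chlorophyll breakdown, and most lists sit within 0.3 of 0.

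Genes of chlorophyll breakdown were lower in M202(Sub1), all 4 of those measured, with a median of -0.97 where 52.5% of all genes were below 0. SGR, the stay-green protein that starts chlorophyll degradation in ageing leaves, read 8.28 in M202(Sub1) and 9.83 in M202 (-1.55). NYC1, a chlorophyll b reductase, read 9.53 in M202(Sub1) and 10.50 in M202 (-0.96), and its partner NOL read 9.90 in M202(Sub1) and 10.48 in M202 (-0.58). RCCR1, a reductase later in the pathway, read 10.10 in M202(Sub1) and 11.07 in M202 (-0.97). Chlorophyll synthesis differed far less, with 9 of 10 genes below 0, a median of -0.09 and none at 2-fold. The 7 photosynthesis genes ran only from -0.18 to 0.08. The widest of them, RCABP69, a chlorophyll a/b-binding protein, read 13.40 in M202(Sub1) and 13.58 in M202. At 6 days the breakdown genes had a median of -0.77, and SGR read 11.85 in M202(Sub1) and 12.75 in M202 (-0.90).

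Cell wall genes leaned low. Of 22 expansin and xyloglucan enzyme genes, which loosen the wall as cells extend, 20 were below 0, against 52.5% of all genes, with a median of -0.24 and none at 2-fold. EXPA1 read 5.80 in M202(Sub1) and 6.71 in M202 (-0.90), and EXPB7 read 9.56 in M202(Sub1) and 10.32 in M202 (-0.76). EXPA16 had the list's highest value (0.28). Of 48 genes for cellulose and lignin, 38 were below 0 and the median was -0.25. At 2-fold 4 were lower, where 1.01% of all genes were, and 1 was higher, where 0.778% of all genes were. LAC20, a laccase of the family that polymerises lignin, read 7.23 in M202(Sub1) and 8.97 in M202 (-1.74). 4CL2, a coumarate-CoA ligase that supplies lignin and flavonoid precursors, read 6.84 in M202(Sub1) and 8.47 in M202 (-1.62). CAD8A, of the cinnamyl alcohol dehydrogenases, read 7.30 in M202(Sub1) and 8.58 in M202 (-1.28). LAC24, another laccase, read 5.56 in M202(Sub1) and 6.77 in M202 (-1.21). All 4 were closer between the lines at 6 days, at -0.10, -0.28, -0.70 and -0.91. CslF8, of the family that makes mixed-linkage glucan, was the higher one, at 7.06 in M202(Sub1) and 6.03 in M202 (1.03).

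Transport families held both small shifts and single large differences. PIP2-5, a plasma membrane aquaporin, read 10.86 in M202(Sub1) and 9.05 in M202 (1.81), while 16 of 21 aquaporin genes were below 0, against 52.5% of all genes, with a median of -0.10. The 11 ABC transporter genes had a median of -0.21, with 6 below 0. Lsi6, a silicon channel of the aquaporin family, read 8.63 in M202(Sub1) and 9.60 in M202 (-0.97). PIP2-5 kept its order at 6 days, at 8.06 in M202(Sub1) and 5.58 in M202 (2.48). Metal genes had a median of -0.02. At 2-fold 3 of 38 were higher, where 0.778% of all genes were, and 1 was lower, where 1.01% of all genes were. NAS1 and NAS2 encode synthases of nicotianamine, an iron chelator. NAS1 read 7.06 in M202(Sub1) and 5.506 in M202 (1.55), and NAS2 read 6.51 in M202(Sub1) and 5.39 in M202 (1.12). The M202 signal of each was under the floor. NAS3, of the same family, went the other way, at 9.75 in M202(Sub1) and 10.50 in M202 (-0.74). The metallothionein genes, whose proteins bind metal ions, also parted. MT-1-4b read 10.97 in M202(Sub1) and 9.76 in M202 (1.202), and MT-I-1b read 7.30 in M202(Sub1) and 8.90 in M202 (-1.60). None of the 24 nitrogen and phosphate genes was 2-fold apart, and AMT2-3, an ammonium transporter, had the widest difference (-0.88) with both arrays under the floor. GRF4 had been taken off this list after its value was seen, so these statements do not cover it.

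Phytoalexin genes were dim at 1 day, most of them slightly higher in M202(Sub1), and mostly lower in M202(Sub1) at 6 days. Diterpenoid phytoalexins are antimicrobial compounds of rice, made from a precursor shared with gibberellins, and 13 of their 14 genes were above 0 at 1 day, against 47.4% of all genes, with a median of 0.45. In 7 of the 14, both 1-day signals were under the floor, and over the other 7 genes the median was 0.24. Signals were low, with list medians of 5.71 in M202(Sub1) and 5.24 in M202. CYP71Z7, a cytochrome P450 of the pathway, read 7.22 in M202(Sub1) and 5.85 in M202 (1.37). CPS4, a diphosphate synthase at its start, read 6.31 in M202(Sub1) and 5.29 in M202 (1.01), with M202 under the floor. CPS2, of the same kind, read 5.48 in M202(Sub1) and 3.48 in M202 (2.002), both under the floor. At 6 days the list's median was -1.16 and 9 of the 14 genes were at least 2-fold lower, where 2.18% of all genes were. Among those 9, CYP76M7, DTS2, MAS, DTC1 and KO5 reached the floor only on the M202 array at 6 days. The floor thus admitted them through the group where they were high, which raises that count. The difference between the days was not tested.

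Pathogenesis-related genes were balanced at 1 day, 11 above 0 and 11 below with a median of -0.01, and 3 of 22 were at least 2-fold higher, where 0.778% of all genes were. PBZ1, a probenazole-induced PR10 protein, read 11.51 in M202(Sub1) and 9.26 in M202 (2.25). At 6 days it read 10.37 in M202(Sub1) and 12.31 in M202 (-1.94). The chitinase genes, whose products attack fungal walls, went both ways. Cht4 read 5.91 in M202(Sub1) and 4.30 in M202 (1.61), with M202 under the floor. Cht11 read 10.08 in M202(Sub1) and 8.88 in M202 (1.198). Cht10 was lower, at 8.29 in M202(Sub1) and 9.34 in M202 (-1.04). The array's 10 probe sets for the blast fungus Magnaporthe spanned 3.52 to 6.64 in M202(Sub1) and 3.20 to 6.65 in M202.

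Calcium signalling genes had 40 of 67 below 0, not far from the 52.5% of all genes, and a median of -0.08. At least 2-fold lower were 2 of them, where 1.01% of all genes were. CML31, a calmodulin-like calcium sensor, read 5.81 in M202(Sub1) and 7.84 in M202 (-2.03). CML15, of the same family, read 6.82 in M202(Sub1) and 8.55 in M202 (-1.74). At 6 days both were among the brighter genes in either line, with CML31 at 12.36 in M202(Sub1) and 12.13 in M202 (0.23), and CML15 at 12.75 in M202(Sub1) and 12.12 in M202 (0.62).

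Growth and housekeeping lists had medians near 0. Cell cycle and histone genes had 34 of 52 above 0, against 47.4% of all genes, a median of 0.05 and 2 at least 2-fold higher, where 0.778% of all genes were. SMR1, an inhibitor of cyclin-dependent kinases, read 10.56 in M202(Sub1) and 8.74 in M202 (1.82), and CDKE-1, a cyclin-dependent kinase, read 12.48 in M202(Sub1) and 10.48 in M202 (2.004). The 2 probe sets of CDKE-1 differed in size, at 0.26 and 2.004, with a mean of 1.13. At 6 days the list's median was 0.43 and 17 genes were at least 2-fold higher, where 3.85% of all genes were. The 25 ribosomal protein genes ran from -0.20 to 0.07 at 1 day, a narrow band. Of them 21 were below 0, against 52.5% of all genes. Of 6 clock genes 5 were above 0, against 47.4% of all genes. The widest was PRR95, a pseudo-response regulator, at 12.29 in M202(Sub1) and 11.88 in M202 (0.41). Taking all 38 lists, 2-fold was passed by 26 of 819 genes on the higher side and 17 on the lower side, and their median was -0.03. Together 5.25% of list genes were 2-fold apart, against 1.79% of all genes, and the lists were chosen with results of these data known.

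Most of the largest differences belonged to genes with only a locus number in the annotation used here, as most measured genes have. An informative symbol was given for 2199 of the 15426 genes. Among genes at least 4-fold apart, 8 of the 28 higher and 3 of the 19 lower had one. LOC4344943 on chromosome 8 read 12.20 in M202(Sub1) and 3.76 in M202 (8.43), and at 6 days 10.35 in M202(Sub1) and 3.37 in M202 (6.98). The M202 signal was under the floor at both times, so the gene read as bright in one line and as background in the other. LOC4341874 on chromosome 6 read 12.69 in M202(Sub1) and 8.40 in M202 (4.29), and LOC4348710 read 13.48 in M202(Sub1) and 9.87 in M202 (3.62). Both kept their gap at 6 days, at 4.60 and 4.04. LOC4349325 did not. It read 7.67 in M202(Sub1) and 4.19 in M202 at 1 day (3.48), and at 6 days was under the floor in both lines, at 3.01 in M202(Sub1) and 2.86 in M202.

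The lowest values clustered on chromosome 6. LOC4339944 read 3.93 in M202(Sub1) and 10.70 in M202 (-6.77), LOC4340120 read 4.98 in M202(Sub1) and 11.62 in M202 (-6.64), and LOC4339940 read 4.85 in M202(Sub1) and 10.82 in M202 (-5.97). All 3 were under the floor in M202(Sub1), at 6 days as well, when their differences were -4.51, -6.55 and -5.52. Chromosome 6 carried 1202 of the 15426 genes compared, and held 34 of the 156 lower genes and 11 of the 120 higher ones. Its excess thus lay mainly on the lower side. At least 2-fold apart were 3.74% of its genes, against 1.62% for all other chromosomes together. Of the 19 genes at least 4-fold lower, 13 were on it, and of the 28 at least 4-fold higher, 3 were. The next chromosome was 12, with 2.497%. Chromosome 9, which carries the Sub1 locus, had 1.68%, with 3 higher and 11 lower genes of 831.

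Within chromosome 6 the differences were crowded. In the densest stretch of 20 neighbouring measured genes, 9 were at least 2-fold apart, 2 higher and 7 lower, while no such stretch on another chromosome held more than 4. Its higher genes were LOC4339921, with 12.28 in M202(Sub1) and 10.004 in M202 (2.28; its other probe set gave 0.08), and LOC4339947, with 8.64 in M202(Sub1) and 6.08 in M202 (2.56). Its lower genes included LOC4339938, at 3.90 in M202(Sub1) and 8.42 in M202 (-4.52), besides LOC4339940 and LOC4339944. Array signals depend on how well a transcript matches the probes, and no sequence of the line was compared, so a lower transcript level and a poorer match cannot be told apart here.

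**Figure D4:**
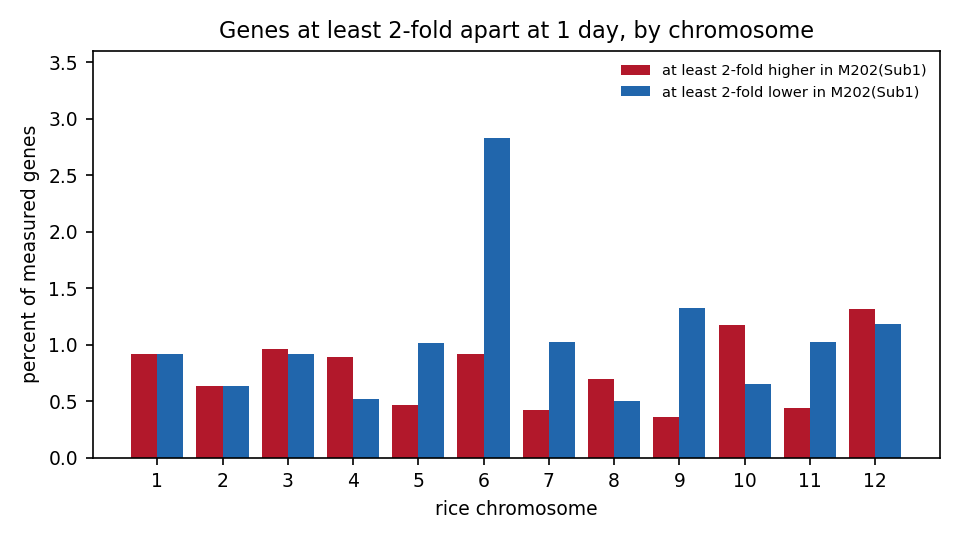
Percent of each rice chromosome's measured genes (y axis) that were at least 2-fold higher (red) or at least 2-fold lower (blue) in M202(Sub1) than in M202 at 1 day. Chromosome 6 has the tallest lower bar, with 34 of 1202 genes.

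The 6-day arrays show which of these differences were seen again in other plants at a later time. Of the 120 genes at least 2-fold higher at 1 day, 67 (55.8%) were at least 2-fold higher at 6 days, where the share among all genes was 3.85%, and 98 (81.7%) kept their sign. Of the 156 lower genes, 49 (31.4%) were at least 2-fold lower at 6 days, where the share among all genes was 2.18%, and 112 (71.8%) kept their sign. Median differences of the higher genes were 1.45 at 1 day and 1.21 at 6 days, and those of the lower genes -1.24 and -0.53. The genes were chosen by their 1-day differences, so the 1-day medians had to be at least 1 in size. Whether the differences shrank with time was not tested. Chromosome 6, with 1202 of the 15426 genes compared, supplied 15 of the 49 lower genes found at both times and 7 of the 67 higher ones. A further 21 genes were at least 2-fold apart in opposite directions, 8 of them higher in M202(Sub1) at 1 day and 13 lower.

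**Figure D5:**
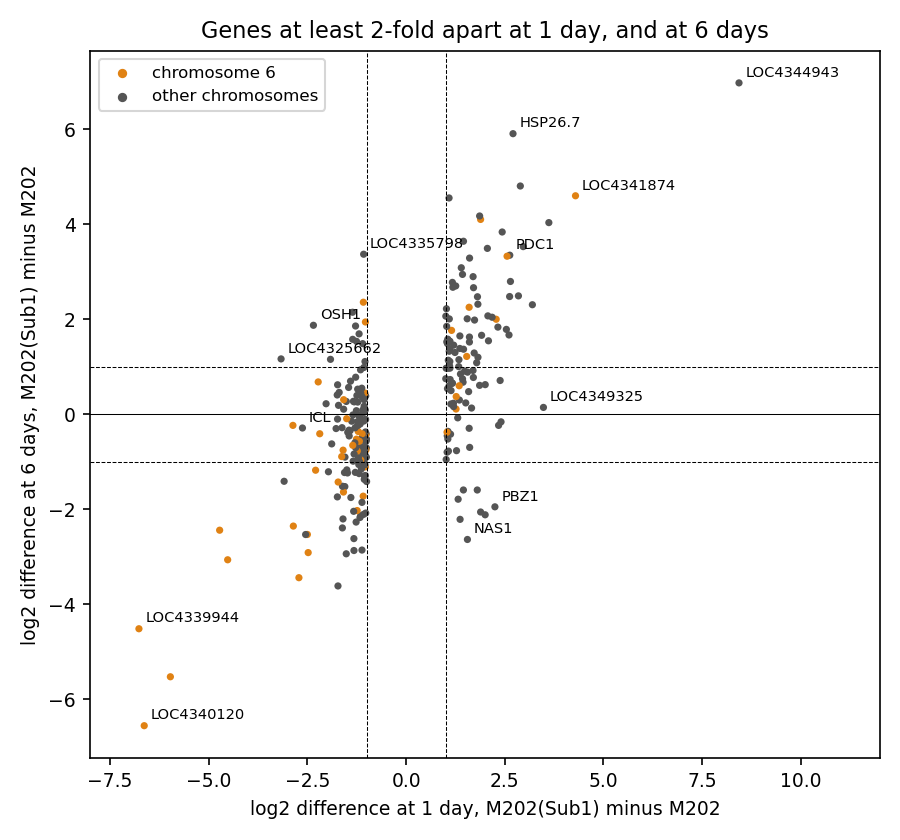
The 276 genes (1.79%) at least 2-fold apart at 1 day. The x axis is the log2 difference at 1 day and the y axis that at 6 days, both M202(Sub1) minus M202, dashed lines mark 2-fold, and orange points lie on chromosome 6. Points at upper right and lower left kept their direction, among them 67 higher and 49 lower genes past 2-fold at both times. PBZ1, NAS1, OSH1 and LOC4335798 lie in the opposite corners.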

How the data were processed

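The deposited values are log2 signals, 1 for each probe set on an array, that the authors computed by RMA (a background correction, normalization and probe summary) per the submitters' processing notes, and the RMA version is not given in the sources used here. It holds 57381 probe sets on each of 4 Affymetrix arrays. The 123 control sets were used only for checks. Of the 57258 rice sets, the platform annotation names 1 gene for 22436, several for 95 and none for 34727. They stand for 17905 genes, all found in the RefSeq table of ASM3414082v1, which was used for names, chromosomes and gene order.

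Where a gene has several probe sets, the one brightest on average over the 4 arrays stands for it. The level floor was the 50th percentile of all rice signals, to be reached on at least 1 array. Differences are M202(Sub1) minus M202, and 2-fold is an absolute log2 difference of 1 or more. With 1 array a group no test was made, and the number of arrays limits the precision. The median of each of 38 gene lists is given beside that of all genes. List members were matched by symbol, and GRF4 was taken off the nitrogen list after its value had been seen. KO2, KO4 and KO5 stand on both the gibberellin and the phytoalexin list.

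The members and lists were chosen with earlier results of these data known. Named genes are the 8 largest values each way, the 15 largest each way among genes with an informative symbol and 1 sign in all probe sets, up to 4 members of each list at 2-fold or else its widest, a set of core genes, and up to 12 genes 2-fold apart in opposite directions at the 2 times. Others were picked as examples after their values were seen. Alternatives were other level floors, other choices of probe sets, other normalizations and a fold of 1.5. The calculations were tested on simulated arrays. Python 3.11.15, numpy 2.4.6, pandas 2.3.3, statsmodels 0.14.6 and matplotlib 3.10.9 were used.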

Additional observations from a re-analysis of the deposited data

Results flagged for a closer look

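In 12 genes the lines differed at least 2-fold one way at 1 day and at least 2-fold the other way at 6 days, with the widest spread among the 21 genes of that kind. With 1 array for each line and time, the difference between the times was not tested. Differences are M202(Sub1) minus M202. The genes higher in M202(Sub1) at 1 day and lower at 6 days were PBZ1 (2.25 and -1.94), CPS2 (2.002 and -2.11), CYP71Z7 (1.37 and -2.21), NAS1 (1.55 and -2.63), LOC4349113 (1.89 and -2.05) and LOC4352488 (1.80 and -1.59). CPS2 and CYP71Z7 belong to phytoalexin synthesis. Those lower at 1 day and higher at 6 days were OSH1 (-2.35 and 1.88), LOC4325662 (-3.17 and 1.17), LOC4335798 (-1.08 and 3.37), LOC4341833 (-1.08 and 2.36), LOC4326920 (-1.36 and 2.15) and LOC4348377 (-1.28 and 1.86). The 2 probe sets of LOC4325662 differed in sign at 1 day, and their mean was -1.55. At 1 day both signals of CPS2 and LOC4341833 were under the floor. The same held for 1 of the 2 signals of NAS1, LOC4349113, OSH1, LOC4335798 and LOC4326920. At 6 days 1 of the 2 was under it for NAS1, LOC4349113, OSH1, LOC4341833 and LOC4348377. LOC4335798 read 5.15 in M202(Sub1) and 6.23 in M202 at 1 day, and 10.47 in M202(Sub1) and 7.09 in M202 at 6 days.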

How the results depend on the processing

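Differences between single arrays mix the lines with the plants, the harvest and the array, and no setting can part these. Over other floors, probe set choices and normalizations, the 1-day counts past 2-fold were 93 to 122 genes higher in M202(Sub1) and 110 to 161 lower, all within 1.5 times of the 120 and 156 reported. At 1.5-fold the counts were 320 higher and 690 lower. Of the named genes' values under the alternatives, 892 of 900 moved by no more than 0.318, the width of the middle 50% of all differences. Settings that change only the floor cannot move a gene's value, so much of that count was fixed in advance. NSHB1 alone changed sign, to -0.29 without probe sets marked for cross-hybridisation. LOC4344943 was 6.67 as the mean of its 2 probe sets. With a floor at the 75th percentile, fermentation had a median of 1.60 over 3 genes. The phytoalexin median (0.45) varied with the floor. It was 0.99 over 4 genes at the 75th percentile, 0.27 over 18 with no floor, 0.24 over the 7 that reached the floor on a 1-day array and 0.15 over the 5 that did on both, and it was 0.30 as the mean of probe sets and 0.61 without those marked for cross-hybridisation. Of the 65 named genes at least 2-fold apart, 40 had both 1-day arrays above the floor. No paired analysis was possible because each group has 1 array. Promoter motif shares, planned as a description, were not run because no promoter sequence was used here.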
